A study of Mus musculus with 15 samples.

Results

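Epididymal fat, the white fat pad that lies beside the testis and epididymis of male mice, was compared between mice refed after dietary restriction (DR-AL) and mice that had never been restricted (AL). All mice were male C57BL/6. The AL mice ate ad libitum and were 5 months of age, whereas the DR-AL mice received 60% of the AL food intake (40% restriction) for 1 month from 4 months of age, returned to AL feeding for 2 months, and were 7 months of age. One more fat library (DR) came from mice of 5 months of age at the end of the restricted month. Its counts are given beside the others with remarks on their order, but no ratio to it was taken. The RNA of 5 mice was pooled for each library, so there was 1 library on each side among the 15 libraries of the series. There was therefore no replicate and no test, the diet history and the age of the mice cannot be told apart, and the intervals given below are 95% exact Clopper-Pearson intervals of a ratio of counts, which cover counting error only.

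The comparison was made on whole-number read counts at the 23589 loci with a gene name, of 33603 loci in all. These loci held 26217345 counts in the AL library, against 22829358 (DR) and 27357403 (DR-AL). Counts were divided by size factors of 0.919 (AL) and 1.21 (DR-AL), and 16292 genes with a mean of at least 20 scaled counts were compared. Of these, 688 were set apart because their highest liver library was at least 4 times their higher fat library in CPM (a gene's count relative to the library's total on named loci), and 1036 because the AL fat library held at most 3 counts, which left 14568 genes. Just under the liver threshold stood Acsl5, Dcxr and Abcc3, with liver levels 3.99, 3.98 and 3.97 times those in fat, and just over it stood Nudt7, Fah and Blvrb, at 4.03, 4.06 and 4.06 times. At the other threshold, Tnp2 with 3 AL counts was set apart and Tnp1 with 4 was not. Where 3 raw counts of a gene follow each other they are those of AL, DR and DR-AL in that order, and the value after them in brackets is the log2 ratio of DR-AL to AL scaled counts.

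White fat stores energy as triglyceride in the lipid droplet of the adipocyte. Fatty acids enter the cell after lipoprotein lipase frees them from circulating lipoproteins, or are made inside it from glucose by de novo lipogenesis. They leave it again by lipolysis, and the cell also secretes hormones such as leptin and adiponectin that report the size of the store. The defining markers of the adipocyte were present in both libraries. Adiponectin, Adipoq, had 114888 counts in AL and 62999 in DR-AL fat. Perilipin 1, Plin1, had 48038 and 26349 counts, and leptin, Lep, had 10006 and 6949.

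RNA typical of other organs was also present, and it differed between the libraries. The median level of 19 hepatocyte genes in AL fat was 15.5% of that in AL liver, against 0.134% in DR fat and 0.0293% in DR-AL fat. Counts of apolipoprotein A1, Apoa1, were 32008 (AL), 262 (DR) and 81 (DR-AL). The fetuin gene Ahsg had 33766, 222 and 41 counts, and the urea cycle enzyme Cps1 had 27547, 108 and 23. Albumin, Alb, was listed at 0 in every library of the series, the liver included, so its locus was not read. In DR-AL fat, genes of sperm cells were high instead. The protamine gene Prm2, which packs DNA in the sperm head, had 43 (AL), 3914 (DR) and 21083 (DR-AL) counts, and the germ cell lactate dehydrogenase Ldhc had 2, 1944 and 13609. The part of these organ signals in the values of other genes was not tested beyond the alternatives named below, and in such pooled tissue RNA fewer cells of a type and less RNA per cell cannot be told apart.

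Across the 14568 genes not set apart, 2550 (17.5%) were at least 2-fold higher in DR-AL than in AL fat, 732 (5.02%) were at least 2-fold lower, and 11286 lay between, with a median log2 ratio of -0.05. Scaled to the library totals, every log2 ratio moved up by 0.34 and the split became 3267 higher to 316 lower, whereas TMM factors moved the ratios by -0.13. Scaled so that 7 adipocyte genes (Adipoq, Plin1, Lipe, Pparg, Fabp4, Cidec and Lep) had a median ratio of 1, a choice made after seeing the data, every log2 ratio moved up by 0.92. Ratios from the deposited FPKM values lay lower throughout, with a median shift of -1.20, which turned Arntl, Cd3g, Gpnmb, Pdk4, Sqle and Timp1, among others, from at least 2-fold higher by counts to slightly below 0. With all 16292 genes included, 22.1% were at least 2-fold higher and 7.72% at least 2-fold lower. The same contrast crossed this line for fewer genes in the other tissues, with 3.79% higher and 2.96% lower in liver, 0.919% and 1.56% in colon, 1.29% and 1.8% in hypothalamus, and 0.478% and 0.243% in hippocampus. Each of those also rests on 1 pooled library a side.

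Higher and lower genes differed in level. Of genes with a mean between 20 and 100 scaled counts, 36.1% were at least 2-fold higher and 7.56% at least 2-fold lower, whereas of the 243 genes above 10000 scaled counts, 2.06% were higher and 23.5% lower. The median log2 ratio ran from 0.48 in the lowest of 6 bins to -0.52 in the highest. The 2550 higher genes took 1.82% of the AL counts and 10.9% of the DR-AL counts, and the 732 lower genes took 22.4% and 11.1%. The most abundant RNAs tended to be lower in DR-AL, and the higher genes were mostly rare in AL fat. Choosing genes by their ratio itself shifts their shares of the AL and DR-AL counts. In the lowest bin, the minimum mean also lets genes with few AL counts pass only where they are higher, which raises the 36.1%. Of the higher genes, 375 (14.7%) stayed under 1 CPM in all 12 libraries of the other tissues, against 50 (6.83%) of the lower genes and 4.57% of all genes not set apart.

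**Figure D1:**
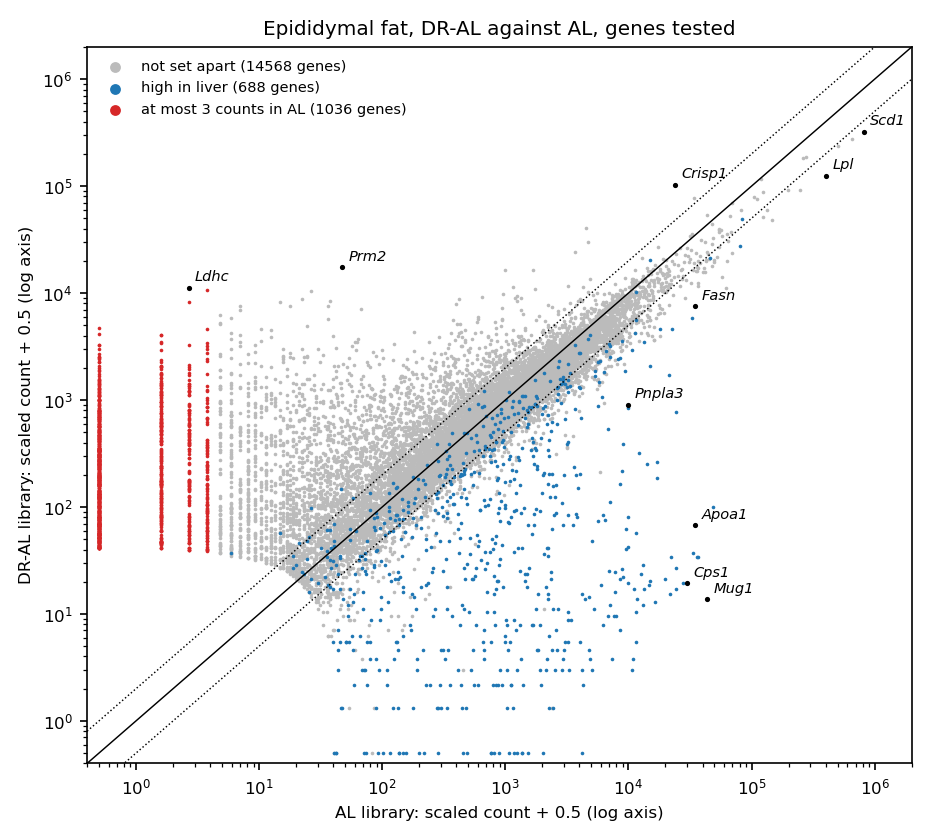
Scaled count plus 0.5 of each of the 16292 genes in the AL library (horizontal, log axis) and the DR-AL library (vertical, log axis) of epididymal fat, with the line of equality solid and 2-fold lines dotted. Grey points are the 14568 genes not set apart, blue points the 688 genes high in liver, which lie mostly below the lines, and red points the 1036 genes with at most 3 AL counts, which form vertical stripes at the left; 10 genes are named.

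**Figure D2:**
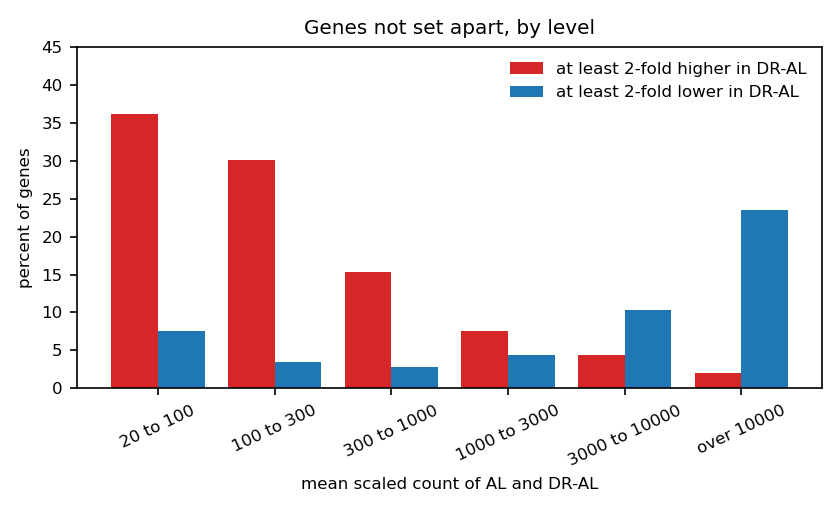
Percent of the genes not set apart that were at least 2-fold higher (red) or lower (blue) in DR-AL than in AL fat, by the mean scaled count of both libraries. The share of higher genes goes from 36.1% in the lowest bin to 2.06% in the highest, where 23.5% were lower.

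Genes of triglyceride storage and lipolysis were lower in DR-AL fat. Of 22 genes on this list, 9 were at least 2-fold lower and none was 2-fold higher, and 21 lay below 0 with a median log2 ratio of -0.86 (-0.52 with 5 lower by library totals, 0.07 with none lower when scaled to the 7 adipocyte genes). Of all genes not set apart, 5.02% were at least 2-fold lower. That share was 4.36% between 1000 and 3000 scaled counts, 10.3% between 3000 and 10000, and 23.5% above 10000. These shares also belong beside the counts of the other gene lists below, which were not matched for level. Lipoprotein lipase, Lpl, which frees fatty acids from lipoproteins, had 370243 (AL), 239602 (DR) and 151760 (DR-AL) counts. Its DR-AL level was the lowest of the 3 libraries, 3.22-fold below AL (log2 ratio -1.69, interval -1.69 to -1.68). The fatty acid carrier Fabp4 had 460955, 281101 and 289177 counts (log2 ratio -1.07), so that both diet groups were below AL. Dgat2, an enzyme of the last step of triglyceride synthesis, had 13603, 33678 and 5915 counts (log2 ratio -1.60), and Dgat1, the other enzyme of that step, had 9443, 8515 and 4790 (-1.38). Dgat2 was thus highest in DR and lowest in DR-AL fat. The droplet coat protein gene Plin1 had a log2 ratio of -1.27. Gpd1, which makes the glycerol backbone, had 16550, 39619 and 7897 counts (-1.47), and Pck1, which makes glycerol phosphate from smaller precursors, had 123648, 25021 and 72679 (-1.17). Among lipolysis genes, the triglyceride lipase gene Pnpla2 had 76103, 61681 and 73030 counts (-0.46), the hormone-sensitive lipase gene Lipe had 57722, 57574 and 42825 (-0.83), and the lipase inhibitor G0s2 had 6538, 3171 and 3306 (-1.38). Plin2, a droplet coat protein found in many cell types, was the 1 gene above 0, with 6779, 6369 and 11707 counts (0.39).

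Genes of de novo lipogenesis were uneven, and 3 of them were among the lowest fat genes of the comparison. Of 15 genes not set apart, 6 were at least 2-fold lower and 1 was at least 2-fold higher, with a median of -0.84 (-0.51 by library totals, 0.08 when scaled to the 7 adipocyte genes, where 3 stayed at least 2-fold lower, namely Pnpla3, Thrsp and Fasn). Pnpla3, a lipid droplet protein gene, had 9189 (AL), 12404 (DR) and 1099 (DR-AL) counts. It was 11-fold lower in DR-AL than in AL (log2 ratio -3.46, interval -3.55 to -3.37) and had at most 31 counts in any liver library. Fatty acid synthase, Fasn, had 31981, 473270 and 9187 counts, 4.59-fold lower in DR-AL than in AL (-2.20, interval -2.23 to -2.16). Thrsp, a nuclear protein gene linked to lipogenesis, had 16676, 47428 and 4762 counts (-2.21). All 3 were highest in DR and lowest in DR-AL fat. Acaca, the acetyl-CoA carboxylase that commits carbon to fatty acid synthesis, had 11140, 68092 and 4333 counts (-1.76). The mitochondrial citrate carrier Slc25a1 had 7490, 23389 and 2608 (-1.92). The same order held for these, DR above AL above DR-AL. Other steps of the pathway lay closer to AL. ATP citrate lyase, Acly, had 3700, 58487 and 5318 counts (0.12), the elongase Elovl6 had 746, 14737 and 797 (-0.30), and the transcription factor gene Srebf1 had 5873, 16788 and 5050 (-0.62). The desaturases went apart. Scd1, which places a double bond in newly made fatty acids, had 756056 counts in AL and 392180 in DR-AL (-1.35) and was listed at 0 in the DR library, a 0 that is doubtful beside such counts and is not read as absence, whereas its relative Scd2, counted on a locus shared with Mir5114, had 2060, 12410 and 9390 (1.79, interval 1.72 to 1.86).

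**Figure D3:**
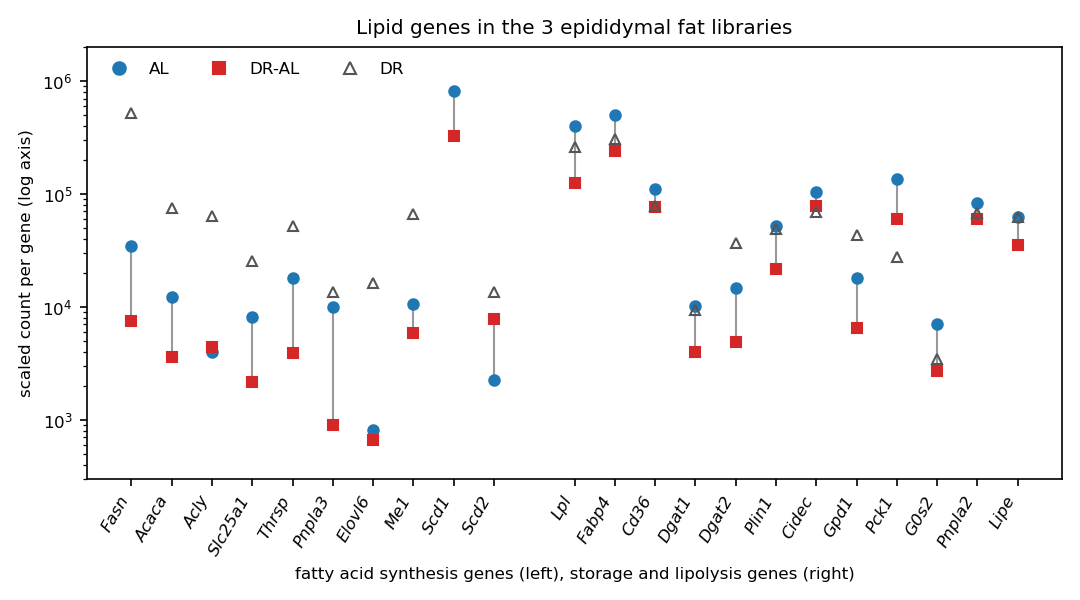
Scaled counts (log axis) of 10 fatty acid synthesis genes and 12 storage and lipolysis genes in the AL (circles), DR-AL (squares) and DR (open triangles) fat libraries, with a line joining AL and DR-AL; Scd1 has no DR point because it is listed at 0 there. The squares of Fasn, Thrsp, Acaca, Slc25a1 and Pnpla3 lie below the circles and the DR triangles above them, while the squares of Acly and Elovl6 lie near the circles.

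The 250 bases before the RefSeq transcription start (GRCm38.p6) are shown for Pnpla3 and Fasn, both among the lipogenic genes lowest in DR-AL fat, and for Per3, the clock gene described below. Capitals mark matches on either strand to the CCAAT box (CCAAT) or the GC box (GGGCGG); an E box (CACGTG) was also searched and was absent from all 3 windows. They lie at chr15:84167566-84167815 on the plus strand for Pnpla3, at chr11:120824548-120824797 on the minus strand for Fasn, and at chr4:151044666-151044915 on the minus strand for Per3.
Pnpla3: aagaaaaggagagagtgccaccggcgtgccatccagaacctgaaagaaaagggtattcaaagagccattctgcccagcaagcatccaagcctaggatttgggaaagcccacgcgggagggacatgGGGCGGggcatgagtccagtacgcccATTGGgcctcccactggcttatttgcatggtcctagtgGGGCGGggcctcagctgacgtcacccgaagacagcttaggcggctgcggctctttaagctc
Fasn: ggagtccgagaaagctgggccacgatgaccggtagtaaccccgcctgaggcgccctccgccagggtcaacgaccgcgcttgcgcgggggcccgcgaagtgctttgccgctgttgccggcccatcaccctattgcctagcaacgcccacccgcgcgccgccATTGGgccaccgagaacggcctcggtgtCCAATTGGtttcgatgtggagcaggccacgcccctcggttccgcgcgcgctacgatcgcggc
Per3: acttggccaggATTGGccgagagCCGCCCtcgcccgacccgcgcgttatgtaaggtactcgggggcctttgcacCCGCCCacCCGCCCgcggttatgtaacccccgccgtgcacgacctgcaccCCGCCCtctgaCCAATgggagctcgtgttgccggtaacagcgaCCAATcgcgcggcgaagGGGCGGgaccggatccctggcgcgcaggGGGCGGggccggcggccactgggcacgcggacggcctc
The Fasn window held 3 CCAAT matches, 2 of which overlap in the last block of capitals, and no GC box. The Pnpla3 window held 1 CCAAT match and 2 GC boxes, and the Per3 window 3 CCAAT matches and 6 GC boxes. Among 32851 windows of this length, 33.8% held a CCAAT match, 32.7% a GC box and 6.02% an E box, so the first 2 motifs are common. A match describes the letters of the window and is not a binding site.

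Secreted proteins and genes whose RNA follows the size of the fat mass were also lower or near AL. Of 9 adipokines and other secreted proteins, none was 2-fold higher and 2 were at least 2-fold lower, with a median of -0.58 (-0.24 by library totals, 0.34 when scaled to the 7 adipocyte genes). These 2 were Adipoq, with 114888 (AL), 71234 (DR) and 62999 (DR-AL) counts (log2 ratio -1.27), and resistin, Retn, with 37323, 43474 and 19222 (-1.36). The satiety hormone gene Lep had 10006, 9256 and 6949 counts (-0.92), and complement factor D, Cfd, had 256450, 229078 and 225824 (-0.58). Of 8 genes linked to expansion of the fat mass, 5 were at least 2-fold lower, with a median of -1.41 that stayed below 0 in every scaling (-1.07 by library totals, -0.48 when scaled to the 7 adipocyte genes). Of all genes not set apart, 5.02% were at least 2-fold lower, and 23.5% of those above 10000 scaled counts. Neuronatin, Nnat, had 53042, 13343 and 17047 counts (-2.04), the bone morphogenetic protein gene Bmp3 had 1120, 921 and 334 (-2.14), and caveolin 1, Cav1, the coat of the adipocyte's surface pits, had 63641, 53536 and 28755 (-1.54). The imprinted gene Mest had 9550, 1233 and 6629 counts (-0.93). Mest was thus lowest in DR, and Bmp3 and Cav1 were lowest in DR-AL fat.

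Regulators of the adipocyte were also lower. All 13 transcription factor genes of the list lay below 0 and 3 were at least 2-fold lower, with a median of -0.70 (-0.36 by library totals, 0.22 when scaled to the 7 adipocyte genes). Cebpa, which maintains the adipocyte state with Pparg, had 15894, 13635 and 7729 counts in AL, DR and DR-AL (-1.44), whereas Pparg itself had 6862, 7804 and 6068 (-0.58). Of 18 insulin and adrenergic signalling genes, 5 were at least 2-fold lower and none 2-fold higher, with a median of -0.65 (-0.31 by library totals, 0.28 when scaled to the 7 adipocyte genes). Slc2a4, the insulin-responsive glucose transporter, had 3881, 7316 and 1408 counts (-1.86, interval -1.95 to -1.77). It again was highest in DR and lowest in DR-AL. The growth factor Igf1 had 9311, 4479 and 4688 counts (-1.39), and the beta-3 adrenergic receptor Adrb3 had 33503, 25579 and 24079 (-0.88). Of the thermogenic list, Ucp1, the uncoupling protein of brown fat, had at most 8 counts in any of the 3 fat libraries, and the cytochrome oxidase subunit gene Cox8b had 326, 415 and 87 (-2.30, interval -2.66 to -1.96). Of its 6 genes not set apart, 2 were at least 2-fold lower, with a median of -0.76 (0.16 when scaled to the 7 adipocyte genes).

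Mitochondrial genes were lower, mostly by less than 2-fold. All 19 nuclear genes of the respiratory chain lay below 0, from -1.05 for Sdhb to -0.47 for Ndufb5, and 2 were at least 2-fold lower. Their median was -0.80, which was -0.47 by library totals, -0.51 after subtracting the liver share from AL, and 0.12 when scaled to the 7 adipocyte genes. The ATP synthase subunit Atp5b, for example, had 40687 (AL), 45254 (DR) and 27832 (DR-AL) counts (-0.95). All 16 genes of branched-chain amino acid breakdown were below 0 as well and 8 were at least 2-fold lower, with a median of -0.97 (-0.63 by library totals, where 1 was, and -0.04 when scaled to the 7 adipocyte genes). Of all genes not set apart, 5.02% were at least 2-fold lower, and 10.3% of those between 3000 and 10000 scaled counts. The aminotransferase Bcat2, the first step, had 4989, 6072 and 2834 counts (-1.21), and the phosphatase Ppm1k, which activates the second step, had 1165, 337 and 467 (-1.72).

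Fatty acid oxidation genes, which the liver uses as well, were lower and depended on how the liver signal of AL fat was handled. Of 13 genes, 8 were at least 2-fold lower and 1 was at least 2-fold higher, with a median of -1.02. By library totals 2 were lower and 2 higher (median -0.68), and when scaled to the 7 adipocyte genes 1 was lower (median -0.10). Subtracting from AL fat the share of the AL liver library that the hepatocyte genes gave moved the median to -0.45 and left 1 gene at least 2-fold lower. Ppara, the transcription factor of the pathway, had 2363, 507 and 378 counts in AL, DR and DR-AL (-3.04), and -1.72 after the subtraction. Cpt1a, the gate of fatty acids into mitochondria in liver, had 5900, 1534 and 2435 (-1.68), and -0.73 after it. Pdk4, a kinase that spares glucose by closing pyruvate dehydrogenase, was the higher gene, with 3476, 1192 and 9335 counts (1.03, interval 0.97 to 1.08). It was lowest in DR fat. Of 15 glycolysis genes, 1 was 2-fold higher and 1 was 2-fold lower, with a median of -0.42 (0.50 when scaled to the 7 adipocyte genes). The higher one was hexokinase 1, Hk1, with 876, 3061 and 11783 counts (3.35), and the lower one was the pyruvate dehydrogenase subunit Pdha1, with 9217, 20719 and 5150 (-1.24). Among 6 cholesterol synthesis genes not set apart, 1 was 2-fold higher (Sqle, 326, 658 and 966 counts, 1.17) and 1 was 2-fold lower (Insig1, 3161, 8189 and 1742 counts, -1.26), with a median of -0.37 (0.56 when scaled to the 7 adipocyte genes).

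**Figure D4:**
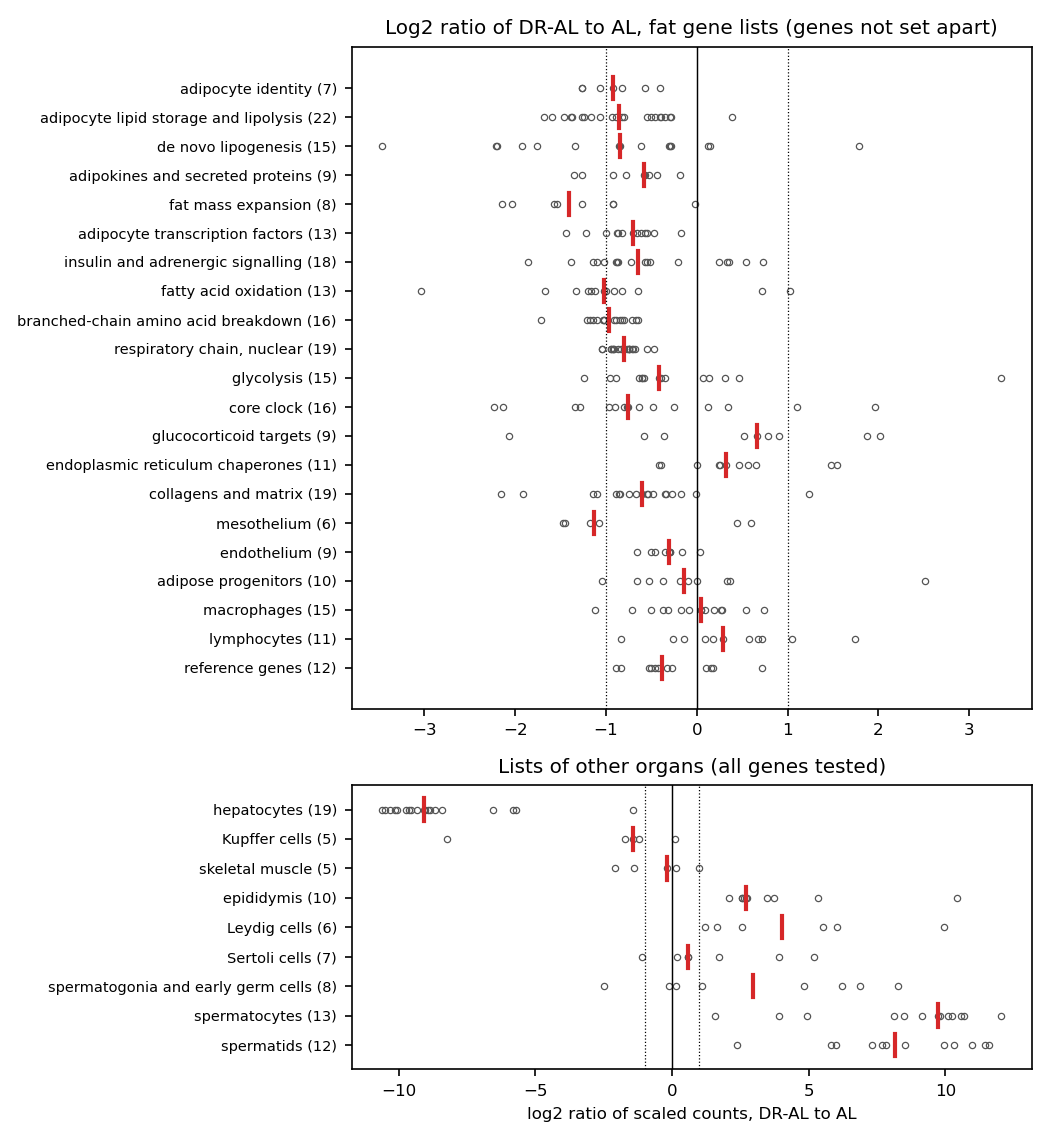
Log2 ratio of DR-AL to AL scaled counts for the genes of 21 fat gene lists (above, genes not set apart) and 9 lists for other organs and their cells (below, all genes compared), 1 circle a gene, the red bar the list's median, dotted lines at 2-fold and the number of genes in brackets. Lists of adipocyte function lie mostly left of 0, from -1.41 for fat mass expansion to -0.42 for glycolysis, hepatocyte genes have a median of -9.08, and spermatid and spermatocyte genes have medians of 8.17 and 9.72, which include genes that are higher by the choice of at most 3 AL counts.

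The clock genes went in both directions, and 10 of 16 lay within 2-fold. Of all genes not set apart, 17.5% were at least 2-fold higher and 5.02% at least 2-fold lower. The molecular clock is a loop in which Arntl (BMAL1) with Clock or Npas2 drives the Per and Cry repressors and the output factors Dbp, Tef and Hlf. Arntl had 135 (AL), 69 (DR) and 383 (DR-AL) counts (1.10, interval 0.82 to 1.40), and Npas2 had 46, 52 and 238 (1.96, interval 1.51 to 2.46). These were the 2 genes at least 2-fold higher, both with few AL counts, and as a share of 16 they do not exceed that of all genes. The period gene Per3 had 5098, 3788 and 1527 counts (-2.14, interval -2.22 to -2.06), Per2 had 1663, 1775 and 899 (-1.29), Dbp had 1518, 2904 and 426 (-2.23, interval -2.39 to -2.08) and Tef had 6739, 7690 and 3514 (-1.34). These were the 4 genes at least 2-fold lower, of 16, and the list's median was -0.76 (0.16 when scaled to the 7 adipocyte genes, in which Dbp and Per3 kept negative ratios). Per1 and Clock lay within 2-fold, at 0.13 and -0.25. The hour at which tissues were taken from each group was not given in the sources used here.

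The same contrast in the other tissues of the mice had its own values for these genes. Per3, at -2.14 in fat, had a log2 ratio of -3.20 in liver, stood just past the lower 2-fold line in colon, and had -0.54 in hypothalamus and -0.12 in hippocampus. Dbp, at -2.23 in fat, had -1.75 in liver, -1.25 in colon and -0.42 in both brain regions. Arntl had 1.75 in the liver and 0.73 in the colon, beside 1.10. Of the clock genes with enough counts, 1 of 15 was at least 2-fold higher and 7 were at least 2-fold lower in the liver, none and 2 of 14 in the colon, and none in either direction among 16 in each brain region. In the brain regions few genes of any kind crossed 2-fold (at most 1.8% in either direction), so a count of 0 among 16 says little about the clock there, and the difference between tissues was not tested.

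**Figure D5:**
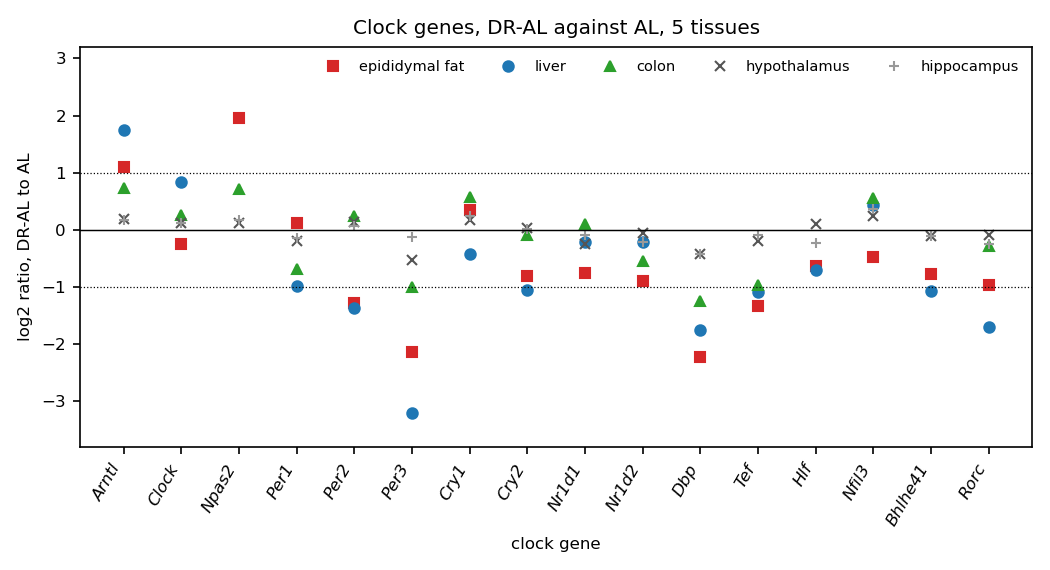
Log2 ratio of DR-AL to AL for 16 clock genes in epididymal fat and in 4 other tissues, with dotted lines at 2-fold; genes with fewer than 20 mean scaled counts in a tissue are left out there. Per3 and Dbp lie below the lower line in fat, liver and colon, at -2.23, -1.75 and -1.25 for Dbp, and hypothalamus and hippocampus points stay between the lines.

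By size factors, glucocorticoid targets and chaperones were 2-fold higher about as often as genes in general, of which 17.5% were. The 17.5% is not matched for level, since 7.59% of genes between 1000 and 3000 scaled counts and 4.37% between 3000 and 10000 were higher. It also moved with the scaling, to 3267 of 14583 genes by library totals and 6325 of 14913 when scaled to the 7 adipocyte genes. Of 9 glucocorticoid targets, 2 were at least 2-fold higher and 1 was at least 2-fold lower, with a median of 0.66. By library totals 4 were higher (median 1.00), and when scaled to the 7 adipocyte genes 6 were higher (median 1.59), with 1 lower in both. The cell cycle inhibitor Cdkn1a had 680 (AL), 466 (DR) and 3281 (DR-AL) counts (1.87, interval 1.75 to 1.99). Lipocalin 2, Lcn2, an iron-carrying secreted protein counted on a locus shared with 1110008P14Rik, had 939, 3487 and 5024 (2.02). Errfi1, a feedback inhibitor of the EGF receptor, was the lower one, with 8391, 2040 and 2639 counts (-2.07) and -0.75 after subtraction of the liver share. Fkbp5, a widely used glucocorticoid reporter, had 3121, 5038 and 7089 (0.78). Of 11 chaperones of the endoplasmic reticulum, 2 were at least 2-fold higher and none lower, with a median of 0.33. Creld2 had 475, 754 and 1821 counts (1.54) and Sdf2l1 had 150, 280 and 552 (1.48), whereas the main chaperone Hspa5 had 8593, 9982 and 16732 (0.56). None of 8 immediate early genes differed 2-fold, with a median of -0.17 that turned to 0.17 by library totals and 0.75 when scaled to the 7 adipocyte genes.

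Of the other cells of the fat pad, vessels and immune cells had few 2-fold differences by size factors, and their medians moved up with the other scalings. None of 9 endothelial genes differed 2-fold (median -0.30, 0.03 by library totals, 0.62 when scaled to the 7 adipocyte genes). Of 15 macrophage genes, 1 was 2-fold lower, the chemokine Ccl2 with 83, 28 and 50 counts (-1.12, interval -1.67 to -0.61), and the median was 0.04 (-0.09 with TMM factors, 0.38 by library totals, and 0.97 with 6 genes higher when scaled to the 7 adipocyte genes). The macrophage receptor Csf1r had 1732, 2171 and 2151 counts (-0.09). Of 10 genes of lipid-associated macrophages, 1 was 2-fold higher, the glycoprotein gene Gpnmb with 301, 403 and 834 counts (1.07), and 2 were 2-fold lower, namely Lpl and osteopontin, Spp1, with 464, 85 and 166 counts (-1.88). None of 7 class II histocompatibility genes differed 2-fold (median -0.10, 0.24 by library totals, and 0.83 with 2 genes higher when scaled to the 7 adipocyte genes), nor did any of 10 interferon-stimulated genes, which all lay below 0 (median -0.66, 0.26 when scaled to the 7 adipocyte genes). Of 11 lymphocyte genes, 2 were 2-fold higher, both from low counts: the T cell genes Cd3g, with 24, 28 and 66 counts, and Cd8a, with 9, 22 and 41. With 9 AL counts, Cd8a could pass the minimum mean only by being higher. The lymphocyte median was 0.29, which became 0.62 with 4 genes higher by library totals and 1.20 with 8 higher when scaled to the 7 adipocyte genes.

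Among 19 collagen and matrix genes, 4 were at least 2-fold lower and 1 was higher, with a median of -0.60 (-0.26 by library totals, 0.33 when scaled to the 7 adipocyte genes). Fibronectin, Fn1, had 14949, 7213 and 4406 counts (-2.16), and the basement membrane collagen Col15a1 had 6096, 7408 and 2140 (-1.91). The protease inhibitor Timp1 was the higher one, with 28, 38 and 88 counts (1.24, interval 0.63 to 1.92). Of 10 progenitor genes, 1 was lower (Dpt, -1.04) and 1 was higher, Dlk1, with 6, 26 and 48 counts (2.51, interval 1.37 to 4.12), and the median was -0.14 (0.19 by library totals). With 6 AL counts, Dlk1 could pass the minimum mean only by being higher. Of 6 genes of the mesothelium, the cell layer that covers the fat pad, 4 were at least 2-fold lower, against 2 by library totals and none when scaled to the 7 adipocyte genes. Upk3b had 1393 (AL), 2121 (DR) and 660 (DR-AL) counts (-1.48) and Msln had 486, 622 and 234 (-1.45), while Wt1, also a Sertoli cell gene, had 326, 423 and 649 (0.59). Of 6 smooth muscle genes, 2 were 2-fold lower (Myh11, -1.03, and Cnn1, -1.18), and none was by library totals. The 3 erythroid loci measured were all just past 2-fold lower (median -1.12), but none was by library totals (-0.78) or when scaled to the 7 adipocyte genes (-0.19), with 6146, 2609 and 3881 counts for the hemoglobin locus Hba-a1 and Hba-a2. The 12 commonly used reference genes all stayed within 2-fold, with a median of -0.38 (-0.04 by library totals, 0.54 when scaled to the 7 adipocyte genes), from Gapdh at -0.89 to Tbp at 0.71.

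Most genes set apart as high in liver were lower. Of the 688, 525 (76.3%) were at least 2-fold lower, 7 (1.02%) were at least 2-fold higher and 156 lay between, with a median log2 ratio of -2.86. Of all 16292 genes compared, 7.72% were at least 2-fold lower. The minimum mean lets genes with few DR-AL counts pass only where they are lower, which raises the 76.3%. Examples are Fgb and Fgg, with 15 and 12 DR-AL counts, and Clec4f. Together the 688 genes held 6.77% (AL), 1.70% (DR) and 1.52% (DR-AL) of all counts. All 19 hepatocyte genes measured were lower, with a median of -9.08. The 5 set-apart genes with the most AL counts went from large to small differences. The serine protease inhibitor Serpina3k had 45149, 332 and 120 counts (-8.95) and Ahsg had 33766, 222 and 41 (-10.06). The selenium carrier Sepp1 had 74478, 39025 and 33685 (-1.54), the detoxifying enzyme Mgst1 had 42051, 21724 and 25585 (-1.12), and the ribosomal RNA precursor Rn45s had 76979, 33592 and 60262 (-0.75). Of 5 genes of Kupffer cells, the macrophages of the liver, 4 were lower, and the liver-restricted Clec4f had 136, 2 and 0 counts. The summed CPM of the hepatocyte list was 19367 (AL), 5363 (DR) and 4145 (DR-AL), and Cyp2e1, an oxidase that fat expresses as well, kept 227711, 119637 and 112244 counts (-1.42).

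Genes with a high level in liver also led the lowest genes among those not set apart. Of the 10 lowest with at least 10 CPM in AL fat, 7 were higher in liver than in any fat library. They were Mug1 (40053, 77 and 16 counts), Cpn2 (2214, 14 and 1), Cps1, Cyp3a13 (1888, 15 and 13), the hepatocyte factor gene Onecut1 (416, 5 and 3), the arginine transporter Slc7a2 (5360, 239 and 259) and the aminotransferase Got1 (2935, 383 and 432). The log2 ratios ran from -11.63 for Mug1 to -3.16 for Got1. Clca3, with 328, 14 and 21 counts, and Lypd8, with 522, 391 and 54, had 196582 and 394909 counts in AL colon. Pnpla3 was the 1 remaining gene. Among the 2023 genes that were at least 10 CPM and highest in AL fat of all tissues, a choice made after seeing the values and one that favours genes lower in DR-AL because it reads the AL level, 227 were at least 2-fold lower and 64 at least 2-fold higher. Their 12 lowest held Pnpla3, Thrsp, Fasn, Per3 and Cox8b as well as a pair of receptors that restrain lipolysis, the lactate receptor Gpr81 with 2831, 1534 and 571 counts (-2.71, interval -2.84 to -2.58) and the niacin receptor Niacr1 with 1034, 275 and 308 (-2.14). They also held the lectin Lgals12, a lipid droplet protein gene, with 14754, 9849 and 4398 counts (-2.14), the small G protein gene Rasd1 with 5337, 3416 and 1683 (-2.06), the prostaglandin synthase Ptgs2 with 2883, 4804 and 926 (-2.04), the BMP antagonist Nog with 298, 63 and 89 (-2.13), and the claudin locus Cldn22 and Cldn24 with 353, 1035 and 68 (-2.76).

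The genes with at most 3 AL counts were mostly near absent from the other tissues of the series. All 1036 (100%) were higher in DR-AL, which the threshold itself fixes, and they took 0.00289% of the AL, 0.387% of the DR and 2.08% of the DR-AL counts. Of them, 853 (82.3%) stayed under 1 CPM in all 12 libraries of the other tissues, against 9.32% of all genes compared. On the X chromosome lay 83 (8.01%), against 3.64% of all genes compared. The 5 with the most DR-AL counts were Ldhc, with 2 AL, 1944 DR and 13609 DR-AL counts (log2 ratio 12.04, interval 10.48 to 15.38), the transition protein gene Tnp2 (3, 1926 and 12855), the protamine gene Prm1 (2, 1437 and 10028), Spata21 (0, 799 and 5660) and Mael (3, 752 and 5579), which silences transposons in the germ line. Against a floor of 3 AL counts, Spata21 was at least 1431-fold higher. The highest ratios among genes with 4 or more AL counts and a mean of at least 100 scaled counts belonged to Tnp1 (4, 1103 and 7495), Crisp2 (6, 1526 and 9255), Spata20 (4, 1002 and 6328), Spint4 (4, 2296 and 6192) and Akap4 (6, 1415 and 8422), between 9.95 and 10.32 on the log2 scale.

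The lists of male reproductive cells gave the same order by library, AL below DR below DR-AL, in their summed levels. Some sums rest largely on 1 gene near its AL level. The Sertoli cell list summed to 416, 520 and 635 CPM, and its gene with the most counts was Clu (9285, 9204 and 13814, 0.17). The list of spermatogonia and early germ cells summed to 257, 265 and 387 CPM, and its gene with the most counts was Zbtb16 (4544, 4567 and 5616, -0.09). The 9 spermatid genes with more than 3 AL counts were at least 2-fold higher in DR-AL than in AL, with a median of 7.69, as were the 4 such spermatocyte genes, with a median of 4.42. A further 3 spermatid and 9 spermatocyte genes had at most 3 AL counts, so that passing the minimum count already made them higher. The minimum count also fixed the call of genes with slightly more AL counts. Of the spermatid and spermatocyte genes just counted, these were Tnp1 (4), Akap4 (6), Tssk6 (12) and Meig1 (6). Of the genes counted below, they were Cyp11a1 (9), Dazl (4), Ddx4 (6), Lcn5 (8), Ros1 (5) and Gpx5 (9). Over the whole spermatid and spermatocyte lists, the summed CPM were 55.1, 822 and 3685 and 23.2, 308 and 1547 in AL, DR and DR-AL. The spermatid gene Gapdhs, with the most AL counts of its list, was counted on a locus shared with Tmem147 (1223, 2607 and 8466 counts). Of the Leydig cell genes, the 4 with more than 3 AL counts were higher (median 2.10), among them the steroid hydroxylase Cyp17a1 with 235, 475 and 1825 counts. Another of them, Insl3, was counted on a locus shared with Jak3 (1646, 2006 and 6791 counts). Of 7 Sertoli cell genes, 3 were higher and 1 lower, and of 5 genes of spermatogonia and early germ cells that were not set apart, 3 were higher and none was lower. Epididymis genes were present in all 3 libraries. The 9 that were not set apart were at least 2-fold higher in DR-AL, with a median of 2.70, and the list had summed CPM of 1049 (AL), 4014 (DR) and 6390 (DR-AL), and Crisp1, a sperm-coating protein gene, had 22172, 63971 and 125400 counts (2.10). Not every epididymis gene followed, since Gpx5 had 9, 3828 and 139 counts and Lcn8 had 2, 1003 and 5.

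Of the 9557 genes with at least 10 CPM in AL fat, 430 were at least 2-fold higher and 518 at least 2-fold lower, a split that the floor on AL itself shifts because it removes genes low in AL. The 10 highest, of which Hspa2 is on the spermatocyte list and Rnase9 on the epididymis list, were the germ cell RNA-binding protein gene Ybx2 (385, 1991 and 10654 counts, 4.39), Phf7 (365, 1733 and 9640, 4.32), Wfdc13 (907, 6225 and 19971, 4.06), Hspa2 (346, 1513 and 6860, 3.91), the defensins Defb22 (591, 4080 and 11238, 3.85) and Defb28 (374, 2182 and 6270, 3.67), Rnase9 (264, 1823 and 4669, 3.74), Wfdc10 (391, 2409 and 6287, 3.61), BC048679 (335, 1757 and 5136, 3.54) and Hk1. In each of them DR lay between AL and DR-AL. Cell division genes were higher in the same library in part. Of 14, 5 were at least 2-fold higher (Bub1, Ccnb2, Aurka, Ccnb1 and Top2a, between 3.79 and 1.52), whereas the proliferation marker Mki67 had 312, 142 and 357 counts (-0.20) and the kinase Aurkb had 54, 32 and 64 (-0.15). The list's median was 0.72, with 8 genes higher by library totals and 12 when scaled to the 7 adipocyte genes. Of all genes not set apart, 17.5% were at least 2-fold higher. That share was 36.1% between 20 and 100 scaled counts and 15.3% between 300 and 1000, and lay in between from 100 to 300. The list was not matched for level. The part of germ cell RNA in the cell division genes and in Hk1 was not tested. Skeletal muscle genes had 2 of 5 lower, and Acta1 had 2455, 3686 and 2866 counts (-0.18).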

How the data were processed

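RNA from 5 tissues of mice on 3 diets was sequenced in 15 pooled libraries, of which the AL and DR-AL epididymal fat libraries were compared and the others served as context. Per the study's methods and notes, the authors trimmed and aligned reads, removed duplicates and kept the strand; the processing notes name mm9 and the methods mm10, so the table's own positions are not printed. The authors deposited raw counts per locus, which were used for every ratio, and FPKM values per locus, which served as an alternative. FPKM here ran lower in DR-AL fat, with a median log2 ratio of -1.25 against -0.05 from counts, and how they were scaled between libraries was not given in the sources used here. Loci with no gene name held 0.258% to 1.39% of the counts and were left out, and 677 loci carry several names. Genes whose reads could be shared with close relatives, as in the Scd, hemoglobin, defensin and protamine families, are uncertain to that extent.

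Median-of-ratios size factors over the 3 fat libraries scaled the counts, ratios took a pseudocount of 0.5, and a gene was counted as different at 2-fold. With 1 library per group no p-value was computed for any result in the text. The Z test of the methods with its smaller fold, which reads counting error only, is among the alternatives, as are library totals, TMM factors (edgeR 4.0.16 in R 4.3.3), other minimum counts, liver thresholds and folds, pseudocounts, and subtraction of 15.5% of the AL liver level from AL fat. Python 3.11.15 with scipy 1.17.1 did the rest. On counts simulated for this comparison over 16346 genes, 100 of 100 genes at 3-fold and 100 of 100 at 4-fold were found with 18 false calls, and 95.4% of intervals covered the true ratio; the simulation held counting error only. Counts per library over the series ranged from 21767088 to 40500130.

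The text names the 10 highest and 10 lowest genes not set apart with at least 10 CPM in AL, the 5 highest with a mean of at least 100 scaled counts, the 5 set-apart genes of each kind with the most counts, genes at the thresholds, and members of 39 gene lists, of whose 451 symbols 449 matched a locus. The members and lists were chosen with earlier results of these data known. Promoter windows are RefSeq sequence of GRCm38.p6.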

Additional observations from a re-analysis of the deposited data

Results flagged for a closer look

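Several fat genes had a ratio of the opposite sign in another tissue, and the difference between the tissues was not tested. In the liver the log2 ratio of DR-AL to AL was above 1 for genes that were at least 2-fold lower in fat. It was 2.78 for Cox8b (10 AL and 70 DR-AL counts in liver), 2.04 for Cox7a1 (22 and 90), 2.46 for the glucose transporter Slc2a4 (7 and 40), 1.12 for Fabp4 (127 and 270) and 1.75 for G0s2 (3060 and 10015). The mesothelial genes had 3.09 for Lrrn4 (4 and 37), 2.19 for Msln (23 and 104), 2.01 for Upk1b (8 and 33) and 2.47 for Upk3b (27 and 148), again in the liver. Col15a1 had 1.02 in the hypothalamus (299 and 623 counts), and Cnn1 had 1.69 in the hippocampus (13 and 27). G0s2 and Col15a1 were the ones with more than 200 counts on both sides. With few AL counts in the liver, Lrrn4 (4), Slc2a4 (7), Upk1b (8) and Cox8b (10) could pass the minimum mean only by being higher. The same held for Cnn1 in the hippocampus, with 13 AL counts. For these genes the minimum mean itself fixed the opposite sign, which therefore says little about a difference between tissues.

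The DR fat library, which is outside the comparison, held more counts than either of the 2 libraries compared for some genes of 3 kinds. Lipogenic genes were high there, with 473270 counts of Fasn, 58487 of Acly and 14737 of Elovl6. Part of the epididymis list also peaked there, with 3828 counts of Gpx5 (9 in AL, 139 in DR-AL). Members with at most 24 counts in AL and DR-AL reached 1003 (Lcn8), 603 (Rnase10), 576 (Lcn9), 270 (Cst11) and 154 (Lcn10). Other members, such as Crisp1, Spink8 and Adam7, peaked in DR-AL fat instead. The summed CPM of the whole list was likewise highest in DR-AL, at 6390 against 4014 (DR) and 1049 (AL). Skeletal muscle genes had 3216 counts of Myh4, 1595 of Ckm, 1430 of Tnnt3, 1139 of Actn3, 770 of Mylpf and 610 of Myh1.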

How the results depend on the processing

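Each group had 1 library, so no replicate could be left out. No paired analysis was possible because each library was a pool of RNA from 5 mice. The count of 2550 genes at least 2-fold higher became 6325 when scaled to the 7 adipocyte genes, 1095 and 654 from FPKM with pseudocounts of 0.1 and 1, 1454 at a 4-fold line, 6965 by the Z test (which scales by library totals and takes a smaller fold and no minimum count), and 1427 among the 5067 genes highest in fat. The count of 732 genes at least 2-fold lower became 316 by library totals, 99 when scaled to the 7 adipocyte genes, 1257 with no genes set apart, 1131 with a liver threshold of 10 times, 9304 and 6750 from FPKM, 2246 and 90 at folds of 1.5 and 4, 1792 by the Z test, and 289 among genes highest in fat. The adipocyte scaling, the centred FPKM and the genes highest in fat were chosen after seeing the data. With FPKM shifted to the median of the counts, the counts were 2483 and 622. Under the other alternatives, among them TMM (2300 and 1058), both stayed within 1.5 times. Uncentred FPKM changed the sign of 89 of 457 gene ratios and turned 9 genes that were at least 2-fold higher by counts below 0, with log2 ratios at pseudocounts of 0.1 and 1 of -0.163 and -0.0933 for Arntl, -0.184 and -0.0784 for Cd3g, -0.484 and -0.474 for Gapdhs, -0.169 and -0.112 for Gpnmb, -0.216 and -0.21 for Pdk4, -0.0978 and -0.0769 for Sqle, -0.0554 and -0.0301 for Star, -0.00696 and -0.00375 for Timp1, and -0.162 and -0.117 for Uchl1. Of 39 list medians, 19 changed sign with the adipocyte scaling, 7 with FPKM at either pseudocount, 5 by library totals, 1 with TMM and 1 with centred FPKM. Subtraction of the liver share gave no value for genes set apart, and 9 other genes came to 0. Depth limits genes with few counts, whose intervals are wide.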
